A study of Mus musculus with 6 samples.

Results

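The 33 genes described here encode proteins that build the mitotic spindle, carry the chromosomal passenger complex, hold and release sister chromatids, and divide the cell at cytokinesis. They were chosen by symbol, and all 33 were found among the 23358 gene rows of the deposited count table and passed the filter on low counts that left 13784 genes. RNA was measured by RNA-seq in MC3T3-E1, a mouse pre-osteoblast line from calvaria of the C57BL/6 background. Cultures grown to confluency in αMEM with 10% FBS received either 1 µM of NU7441, which blocks the repair kinase DNA-PK, or its solvent DMSO for 16 h, with 3 sequenced samples per group. Per the series' design text, each sequenced RNA was a pool of triplicates from independent experiments, and all samples come from this 1 line. Nothing says which culture a sample number stands for, so the p-values below measure only the spread between these samples, which may be technical.

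A dividing cell assembles a bipolar microtubule spindle, attaches each chromosome to both poles, and waits at the spindle checkpoint until attachment is complete. Separase then cuts cohesin, the passenger complex moves from centromeres to the midzone of the spindle, and an actomyosin ring guided by the GTPase RhoA closes between the daughter nuclei. Most of the proteins involved are made anew in each cycle, with transcripts that peak in G2 and mitosis, and many of their promoters carry a CCAAT box, bound by NF-Y, and a cell cycle genes homology region (CHR), bound by the DREAM and MuvB complexes. In bulk RNA, fewer dividing cells and less of a transcript per cell cannot be told apart.

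Promoter sequences show which of these elements the members hold near the start of transcription. RefSeq promoters on GRCm38.p6, from 250 bases before to 50 bases after each start, were matched for 29 of the 33 genes, with Sgol1 and Sgol2 found under their newer symbols, and Tpx2, Dlgap5, Incenp and Cdca2 were not matched. Below, 120 bases are given for 9 genes, from 90 bases before the start through the first 30 transcribed bases, 5′ to 3′ on the strand of the gene. Capitals mark the CHR letters TTTGAA or TTCGAA and the CCAAT box CCAAT, on either strand, so that TTCAAA and ATTGG are their reverse complements. The first 6 genes fell at least 2-fold, with Espl1 first and Racgap1 23rd of the 33 by size of the fall, Bub3 and Cks1b fell less than 2-fold, and Numa1 was not called. The 9 were picked by hand. The 4 matched genes that fell at least 2-fold but held neither element, among them Nusap1, are not shown. Where a gene has several starts, the window belongs to the first one listed.
Espl1, chr15:102296203-102296322, plus strand: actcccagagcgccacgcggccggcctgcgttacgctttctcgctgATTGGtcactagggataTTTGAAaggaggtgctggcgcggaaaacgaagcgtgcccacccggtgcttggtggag
Cdca8, chr4:124936888-124937007, minus strand: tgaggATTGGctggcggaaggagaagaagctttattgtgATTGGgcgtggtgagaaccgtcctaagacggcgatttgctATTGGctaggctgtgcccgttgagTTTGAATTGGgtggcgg
Aspm, chr1:139454683-139454802, plus strand: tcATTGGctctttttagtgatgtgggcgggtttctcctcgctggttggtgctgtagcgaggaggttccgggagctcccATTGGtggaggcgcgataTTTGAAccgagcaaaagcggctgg
Prc1, chr7:80294361-80294480, plus strand: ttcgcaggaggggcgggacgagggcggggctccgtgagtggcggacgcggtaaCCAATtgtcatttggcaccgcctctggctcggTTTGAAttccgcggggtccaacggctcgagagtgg
Racgap1, chr15:99651627-99651746, minus strand: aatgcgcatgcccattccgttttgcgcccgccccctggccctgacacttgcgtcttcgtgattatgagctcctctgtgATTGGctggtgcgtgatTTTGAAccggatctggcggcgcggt
Hmmr, chr11:40733408-40733527, minus strand: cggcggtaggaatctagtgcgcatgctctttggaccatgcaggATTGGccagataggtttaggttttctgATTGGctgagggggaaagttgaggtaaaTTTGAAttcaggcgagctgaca
Bub3, chr7:131560280-131560399, plus strand: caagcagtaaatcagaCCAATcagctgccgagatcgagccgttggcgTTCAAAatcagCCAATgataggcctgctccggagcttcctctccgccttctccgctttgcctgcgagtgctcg
Cks1b, chr3:89418262-89418381, minus strand: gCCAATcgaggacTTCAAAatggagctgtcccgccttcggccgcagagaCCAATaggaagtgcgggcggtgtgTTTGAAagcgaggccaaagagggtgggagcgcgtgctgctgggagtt
Numa1, chr7:101969753-101969872, plus strand: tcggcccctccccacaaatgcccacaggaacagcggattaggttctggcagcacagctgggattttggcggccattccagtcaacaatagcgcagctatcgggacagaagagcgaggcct

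CHR letters occurred in the 300-base promoters of 20 of the 29 genes (69.0%), against 16.4% of the 9650 tested genes that had a promoter in the table. These 9650 of the 13784 tested genes were matched by exact symbol only, whereas newer symbols were also accepted for members. A CCAAT box occurred in 21 (72.4%, against 43.0%), and both were held by 18 (62.1%, against 6.77%). Within 50 bases of the start, a distance chosen after the positions were seen, CHR letters stood in 17 of the 29 (58.6%, against 4.29%). In Espl1 the CHR began 27 bases before the start and a reversed CCAAT box 44 bases before it. In Cdca8 the CHR and a reversed CCAAT box share 1 base. CHR letters were present in 17 of the 24 matched genes that fell at least 2-fold (70.8%) and in 3 of the 5 other matched members (60.0%), namely Bub3, Cks1b and Ckap5. The start matched for Ckap5 (chr2:91526762) lies upstream of the start of its deposited gene row (91546322). The 6 matched genes that held neither element in this window were Birc5, Nusap1, Tacc3, Cit, Mad2l1 and Numa1. A match is a description of letters and not a measured binding site, and a gene with several starts counts as holding an element if any of its windows does.

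Of the 33 genes 32 were lower in NU7441 at an adjusted p of 0.05 (edgeR quasi-likelihood test, Benjamini-Hochberg over all genes), where 16.6% of all tested genes were called lower. None was called higher, where 14.1% of all tested genes were. The count of members higher was also 0 at an unadjusted p of 0.05 in edgeR and 0 with DESeq2; with upper-quartile scaling it was 1, Numa1. The fall was at least 2-fold for 28 of the 33, against 1.36% of all tested genes. The 28 are 14.9% of the 188 genes that fell so far. Every NU7441 sample lay below every DMSO sample for 32 members, against 22.2% of all tested genes. The median log2 fold change of the 33 was -1.32, and that of all tested genes was 0.01. Summed over the members, normalised counts went from 2652 ± 168 counts per 1000000 scaled counts (CPM, mean ± SD, n = 3) in DMSO to 1287 ± 98.3 in NU7441. All of these values come from the same 6 samples in which earlier results had already shown mitosis genes falling.

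**Figure D1:**
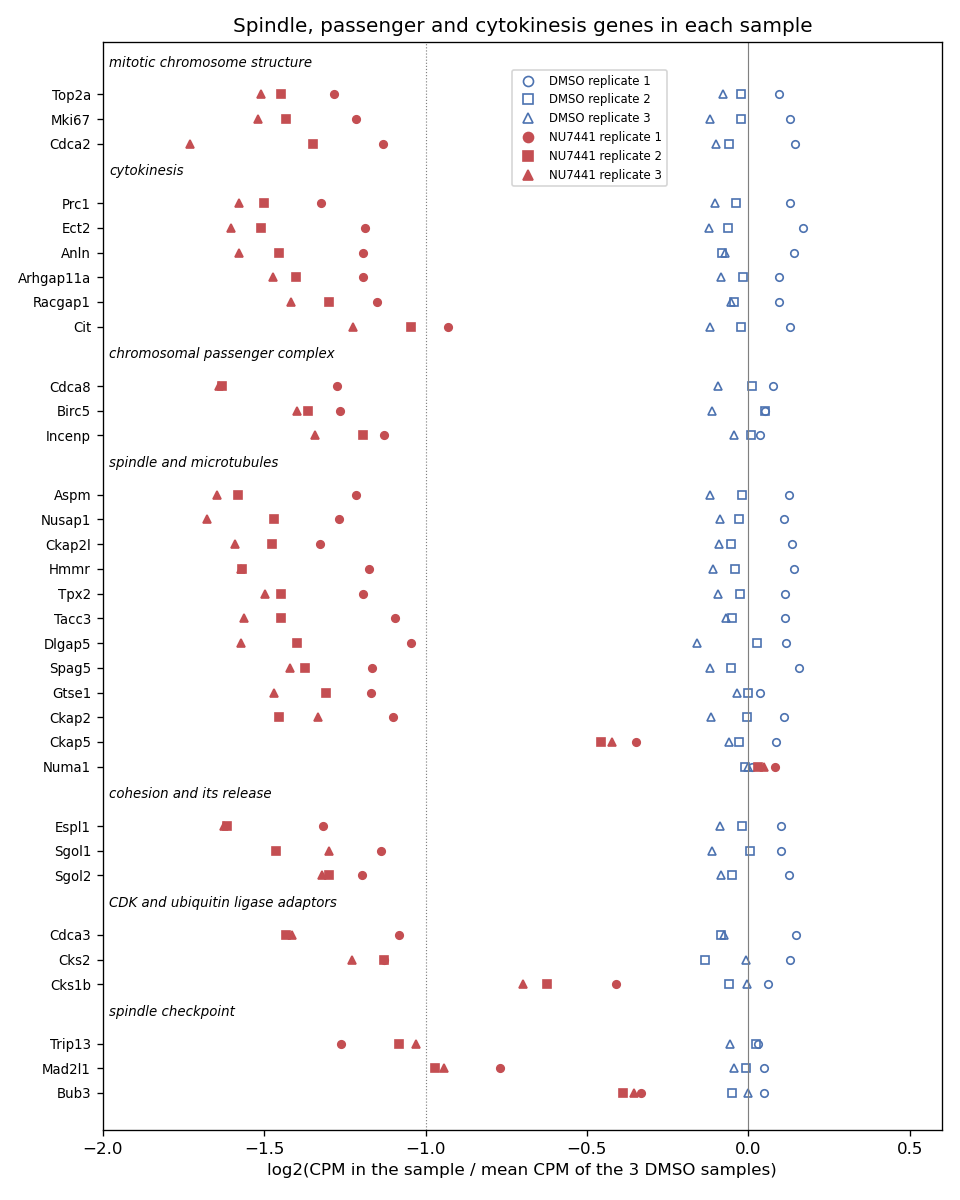
Each row is a gene and each point a sample, as log2 of its CPM over the mean of the 3 DMSO samples, with the genes sorted by role. Open blue symbols are DMSO and filled red symbols NU7441, the shape gives the replicate number and the dotted line marks a 2-fold fall; NU7441 lies left of DMSO for 32 genes and to the right for Numa1.

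Gene counts lay between 47312968 and 71292628 per DMSO sample and between 52150994 and 55021692 per NU7441 sample, and no member had fewer than 318 counts in a sample. All 9 osteoblast lineage markers had counts, with Bglap and Bglap2 (osteocalcin) at 12 counts or fewer, and their sum lay between 6767 and 7210 RPKM in DMSO and between 7007 and 7051 in NU7441. Of the 7 that were tested, Ibsp (bone sialoprotein, log2 fold change -0.89, adjusted p = 0.00041) and Alpl (alkaline phosphatase, -0.29, adjusted p = 0.006) were lower, Spp1 (osteopontin, 0.25, adjusted p = 5.2e-06) and Col1a2 (0.05, adjusted p = 0.024) were higher, and Col1a1, Runx2 and Sp7 were not called. The markers with 0 counts in all samples were Ptprc (blood cells), Kdr (endothelium), Myod1 (muscle), Acan (cartilage) and Epcam (epithelium). Cdh5 (endothelium) and Myog (muscle) reached 2 counts. Other markers of these cell types had counts, Cd68 from 48 to 112, Csf1r from 42 to 84, Pecam1 from 8 to 28, Des from 50 to 88 and Cdh1 from 66 to 142, and none of these 5 was called. Of the fat cell markers Adipoq reached 4 counts, Plin1 6 and Cfd 22. Of the cartilage markers Sox9, also a skeletal progenitor factor, had 3398 to 5278 counts and Col2a1 had 414 to 600. Both cartilage markers were higher in NU7441 (Sox9 0.14, adjusted p = 0.0058, and Col2a1 0.23, adjusted p = 0.046). Their list summed to between 14.2 and 14.8 RPKM in DMSO and between 15.1 and 16.0 in NU7441. The part of these markers in the results was not tested.

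The chromosomal passenger complex places Aurora B kinase on centromeres and later on the midzone. The 3 subunits other than the kinase are members here, and all 3 fell. Cdca8, which encodes borealin, stood at 28.5, 27.2 and 25.3 CPM in the DMSO samples and at 11.2, 8.71 and 8.66 in the NU7441 samples, a log2 fold change of -1.50 ± 0.08 (SE, adjusted p = 4.2e-09). Birc5, which encodes survivin, stood at 46.9, 46.9 and 41.8 CPM and at 18.8, 17.5 and 17.1 (-1.34 ± 0.05, adjusted p = 1.7e-10). Incenp, the scaffold that binds and activates Aurora B, stood at 98.7, 96.8 and 93.5 CPM and at 44.0, 42.1 and 38.0 (-1.22 ± 0.05, adjusted p = 1.7e-10). No NU7441 sample reached a DMSO sample for any of the 3. Per gene length, Incenp was the most abundant, 2.27 times Birc5 in DMSO and 2.46 times in NU7441, and that ratio overlapped between the groups. Of 5 other genes that make or recruit the complex all 5 fell, among them Aurkb, Aurora B itself (-1.57 ± 0.06), Bub1, the kinase whose histone mark recruits shugoshin (-1.49 ± 0.07), and Ttk, a checkpoint kinase (-1.25 ± 0.07).

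Top2a, Mki67 and Cdca2 act on mitotic chromosomes and fell by nearly the same amount. Top2a, the topoisomerase that untangles sister DNA, had the highest level per length of the 33 genes, at 57.6 ± 3.52 RPKM in DMSO and 21.2 ± 2.07 in NU7441. Its samples read 424, 392 and 376 CPM in DMSO and 163, 146 and 140 in NU7441 (log2 fold change -1.41 ± 0.05, adjusted p = 1.7e-10). Mki67 encodes the Ki-67 protein that coats mitotic chromosomes and is a standard marker of cycling cells. It read 354, 318 and 298 CPM in DMSO and 139, 120 and 113 in NU7441 (-1.38 ± 0.07, adjusted p = 1.5e-09). Cdca2, or Repo-Man, which brings protein phosphatase 1 to chromosomes, fell by 1.38 ± 0.11 on the log2 scale, and its NU7441 samples spread more than those of any other member (a coefficient of variation of 20.3%).

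Of the 12 spindle and microtubule genes 11 fell, and 10 of these at least 2-fold. The median log2 fold change of the 12 was -1.34. The 10 lay between -1.29 (Ckap2) and -1.47 (Aspm). Aspm, a spindle pole protein whose loss causes microcephaly, read 85.1, 77.0 and 71.8 CPM in DMSO and 33.6, 26.1 and 24.9 in NU7441 (-1.47 ± 0.09, adjusted p = 9.3e-09). Tpx2, which activates Aurora A and nucleates microtubules near chromatin, read 103, 94.0 and 89.5 CPM and then 41.8, 35.1 and 33.9 (-1.37 ± 0.07, adjusted p = 1.5e-09). The groups did not overlap for either gene, and replicate 1 was the highest sample of each group.

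The other 8 members of these 10 included Nusap1 (-1.46 ± 0.08), Ckap2l (-1.46 ± 0.06) and Dlgap5 (-1.32 ± 0.10), which bind and stabilise spindle microtubules. Hmmr, which helps to focus the poles, changed by -1.43 ± 0.09, and Spag5, or astrin, which guards kinetochore attachments, by -1.31 ± 0.07. Gtse1, a microtubule plus-end protein that also restrains p53, changed by -1.31 ± 0.07. All of them passed with an adjusted p of 1.7e-07 or lower. Nusap1 shares 208 bases with Oip5, a centromere gene on the opposite strand that also fell (-0.94). With no strand setting known, reads there cannot be assigned to 1 of them.

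Tacc3 and Ckap5 encode partners that, with clathrin, cross-link the fibres that pull on kinetochores, but their transcripts changed by different amounts. Tacc3 read 60.2, 53.6 and 53.0 CPM in DMSO and 26.0, 20.4 and 18.8 in NU7441 (log2 fold change -1.35 ± 0.09, adjusted p = 1.8e-08). Ckap5, a microtubule polymerase that also works in interphase, read 216, 199 and 195 CPM and then 160, 148 and 152 (-0.41 ± 0.04, adjusted p = 2e-06). Per gene length Tacc3 stood at 0.685 times Ckap5 in DMSO and at 0.352 times in NU7441. Cltc, the clathrin heavy chain, had a log2 fold change of -0.01 ± 0.02 (adjusted p = 0.81).

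Numa1 was the 1 member that was not called. It encodes NuMA, which tethers microtubules at the spindle poles and is a nuclear protein outside mitosis. Its samples read 221, 218 and 219 CPM in DMSO and 232, 224 and 227 in NU7441, a log2 fold change of 0.05 ± 0.03 (adjusted p = 0.19). The NU7441 samples all lay above the DMSO samples, as they did for 20.6% of all tested genes. The log2 fold change lay between 0.03 and 0.08 over 14 other settings, and with upper-quartile scaling the adjusted p was 0.0466. Of its partners at the cell cortex, Gpsm2, which anchors NuMA, fell (-0.41 ± 0.04), whereas Dync1h1, the dynein heavy chain, had a log2 fold change of -0.03 ± 0.03 (adjusted p = 0.44).

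Among the 28 other spindle genes examined 23 fell, 9 of them at least 2-fold, and 0 rose. Their median log2 fold change was -0.43. Those with the lowest adjusted p were the kinesins Kif11 (-1.41 ± 0.05), which pushes the poles apart, Kif15 (-1.32 ± 0.06) and Kif22 (-1.30 ± 0.06). The 8 subunits of augmin, which branches new microtubules from old ones, changed less, from -0.07 (Haus2, not called) to -0.98 (Haus5). Tubg1, the gamma-tubulin from which those microtubules grow, went from 18.4 ± 1.19 CPM in DMSO to 12.8 ± 1.04 in NU7441 (log2 fold change -0.53 ± 0.07, adjusted p = 3.7e-05).

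**Figure D2:**
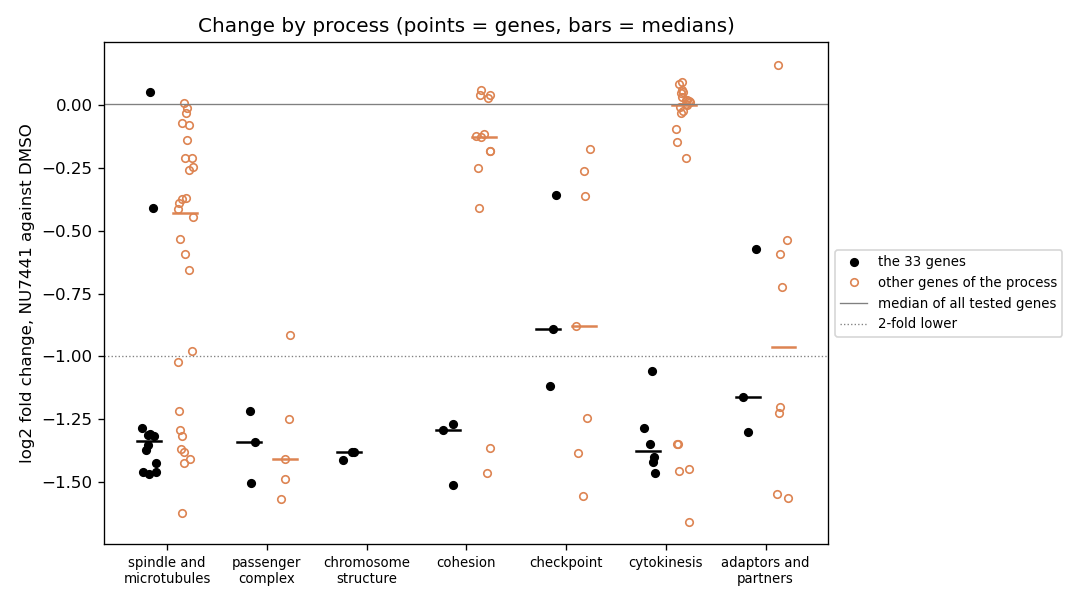
Each point is a gene, placed by its log2 fold change between NU7441 and DMSO; filled points are the 33 genes, open points the other genes of the same process, and bars are medians. The filled points sit between -1.51 and -1.06 except for 5 genes above the dotted 2-fold line. The median of the open points is 0.00 for cytokinesis and -0.13 for cohesion, where 9 of 13 were called lower. That of all tested genes is 0.01.

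The 3 genes of cohesion and its release all fell at least 2-fold. Espl1 encodes separase, the protease that cuts cohesin at anaphase, and had the largest fall of the 33. It read 46.4, 42.7 and 40.7 CPM in DMSO and 17.3, 14.1 and 14.0 in NU7441 (log2 fold change -1.51 ± 0.07, adjusted p = 7.6e-10). Sgol1 and Sgol2 encode the shugoshins, which shield centromeric cohesin until then. Sgol1 read 26.4, 24.7 and 22.8 CPM in DMSO and 11.2, 8.93 and 10.0 in NU7441 (-1.29 ± 0.08). Sgol2 read 46.6, 41.2 and 40.2 and then 18.6, 17.4 and 17.1 (-1.27 ± 0.06), and the ratio of both shugoshins within a sample overlapped between the groups (difference of 0.03 in log2). A near copy of Sgol2 is annotated as Sgo2b, so part of its reads may belong there.

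The cohesin ring itself changed less. Of 13 other cohesion genes 9 fell and 0 rose, with a median of -0.13; with upper-quartile scaling, and likewise with the replicate number as a block, 1 rose. Cdca5, or sororin, which locks cohesin on replicated DNA, fell by 1.46 ± 0.07 on the log2 scale, and the log2 fold change of Esco2, its acetyltransferase partner, was -1.37 ± 0.11. The ring subunits Rad21 (-0.41 ± 0.03), Smc1a (-0.25 ± 0.03) and Smc3 (-0.18 ± 0.03) also fell. Pttg1, which encodes the securin that inhibits separase, had a mean of 7.97 ± 0.92 CPM under DMSO against 8.17 ± 0.42 under NU7441 (0.03 ± 0.09, adjusted p = 0.85).

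All 3 checkpoint genes fell, 1 of them, Trip13, at least 2-fold, and their median was -0.89. Mad2l1 encodes MAD2, which blocks the anaphase-promoting complex while kinetochores are free. It read 59.3, 57.1 and 55.7 CPM in DMSO and 33.7, 29.3 and 29.8 in NU7441 (log2 fold change -0.89 ± 0.05, adjusted p = 3.9e-09). Bub3, which brings BUB1 and BUBR1 to kinetochores, read 67.7, 63.3 and 65.5 CPM and then 52.0, 50.02 and 51.2 (-0.36 ± 0.04, adjusted p = 3.2e-06). The groups did not overlap for either gene although Bub3 kept 78.0% of its DMSO mean. Trip13 encodes the ATPase that takes MAD2 out of the checkpoint complex and had the lowest level per length of the members, 4.86 ± 0.14 RPKM in DMSO. It read 14.9, 14.8 and 14.0 CPM in DMSO and 6.07, 6.87 and 7.13 in NU7441 (-1.12 ± 0.08, adjusted p = 3.4e-08).

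Of 7 other checkpoint genes 6 fell, 3 of them at least 2-fold, and 0 rose. Cdc20 had the largest fall of the 7 (log2 fold change -1.56 ± 0.10). Kntc1, a subunit of the kinetochore complex that recruits dynein and MAD1, changed by -1.24 ± 0.05 and Bub1b, which encodes BUBR1, by -1.38 ± 0.08. Mad1l1, the binding partner of MAD2, changed by -0.26 ± 0.05, and Mad2l1bp, the adaptor through which TRIP13 acts on MAD2, had a log2 fold change of -0.17 ± 0.07 (adjusted p = 0.083).

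The 6 cytokinesis genes all fell at least 2-fold, with a median of -1.38. Prc1 bundles antiparallel microtubules in the midzone and read 90.6, 80.6 and 77.0 CPM in DMSO and 33.03, 29.2 and 27.7 in NU7441 (log2 fold change -1.46 ± 0.06, adjusted p = 4.9e-10). Racgap1, a subunit of centralspindlin, read 102, 92.9 and 92.2 CPM and then 43.2, 38.9 and 35.9 (-1.28 ± 0.06, adjusted p = 6.1e-10). Centralspindlin recruits Ect2, the exchange factor that activates RhoA at the equator. Ect2 read 51.7, 44.1 and 42.3 CPM and then 20.2, 16.2 and 15.2 (-1.42 ± 0.09, adjusted p = 1.6e-08).

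Downstream of RhoA, Anln (anillin, the scaffold of the contractile ring) read 115, 98.4 and 98.9 CPM in DMSO and 45.5, 38.0 and 34.8 in NU7441, a log2 fold change of -1.40 ± 0.08. Arhgap11a, a GTPase-activating protein for RhoA, changed by -1.35 ± 0.06. Cit, the citron kinase of the midbody, had the smallest fall of the 6. Cit read 49.3, 44.4 and 41.5 CPM in DMSO and 23.7, 21.9 and 19.3 in NU7441 (-1.06 ± 0.07, adjusted p = 2.4e-08). It was the gene nearest to the 2-fold limit among the 28. Without DMSO replicate 1, and likewise without NU7441 replicate 3, the number past that limit was 27.

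Of 23 other cytokinesis genes, which include regulators that also act in interphase, 8 fell and 2 rose, with a median of 0.00. Among all tested genes 16.6% were called lower and 14.1% higher. The kinesins Kif14 (-1.45 ± 0.06) and Kif20b (-1.35 ± 0.07) and the mitotic kinase Plk1 (-1.66 ± 0.10) fell, as did the centralspindlin motor Kif23 (-1.46 ± 0.10), the partner of Racgap1. Rhoa had a log2 fold change of 0.03 ± 0.03 (adjusted p = 0.48), and Chmp4b, an ESCRT subunit that cuts the last bridge between daughter cells, of 0.02 ± 0.03 (adjusted p = 0.61). Myh9, the heavy chain of non-muscle myosin (0.08 ± 0.02), and the septin Sept11 (0.09 ± 0.03) rose, and neither was called without DMSO replicate 2 or when scaled by library size only. The number higher was 1 without NU7441 replicate 3.

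The adaptors of cyclin-dependent kinases and ubiquitin ligases are small proteins that present substrates. Cks1b and Cks2 are close paralogs that bind cyclin-dependent kinases, and Cks1b also helps the ligase SCF-SKP2 to mark the inhibitor p27. Cks1b read 24.3, 22.3 and 23.2 CPM in DMSO and 17.5, 15.1 and 14.3 in NU7441 (log2 fold change -0.57 ± 0.07, adjusted p = 1.3e-05). Cks2 read 22.5, 18.8 and 20.5 CPM and then 9.39, 9.41 and 8.77 (-1.16 ± 0.07, adjusted p = 1.3e-08). Per gene length Cks2 stood at 0.963 times Cks1b in DMSO and at 0.644 times in NU7441. A retrocopy of Cks1b is annotated as Cks1brt, so that its reads are uncertain. Cdca3, also known as Tome-1, which serves the destruction of WEE1, fell by 1.30 ± 0.08. Of 8 partners of these adaptors 7 fell and 1 rose. Cdk1 (-1.22 ± 0.05), its activator Ccnb1 (-1.55 ± 0.08) and Ccna2 (-1.56 ± 0.09) fell. Skp2 fell by 0.54 ± 0.05, and Cdkn1b, which encodes p27, rose by 0.16 ± 0.04 (adjusted p = 0.0094).

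Over the 6 lists of other genes together 58 of 84 fell and 3 rose, with a median of -0.37, beside 32 and 0 of the 33 members and -1.32. For these counts and those of each list, the shares over all tested genes were 16.6% lower and 14.1% higher. The 3 that rose were Myh9, Sept11 and Cdkn1b. Their number was 1 without DMSO replicate 2 and 1 with library size only, and 5 with upper-quartile scaling.

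Pairs of members that work together were compared within each sample, so that scaling cancels, and are described with no test because the pairs were chosen after their values were seen. Of 8 pairs, 4 had ratios that did not overlap between the groups, namely Cks2 to Cks1b, Mad2l1 to Bub3, Tacc3 to Ckap5 and Tpx2 to Numa1. Each of these pairs holds a member that fell less than 2-fold or was not called, so the ratios restate the changes of single genes. The share over other pairs of genes was not computed. The log2 ratio of Cks2 to Cks1b was -0.18 ± 0.07 (SD, n = 3) in DMSO and -0.76 ± 0.12 in NU7441. That of Mad2l1 to Bub3 was -0.19 ± 0.04 and -0.73 ± 0.09. That of Tpx2 to Numa1 was -1.2 ± 0.10 and -2.63 ± 0.14. The other 4 pairs, Sgol2 to Sgol1, Ckap2l to Ckap2, Incenp to Birc5 and Racgap1 to Ect2, overlapped between the groups, with differences from -0.17 to 0.14 in log2.

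The 28 genes that fell at least 2-fold covered a range of 0.45 in log2, beside a median SE of 0.07 for 1 gene. In NU7441 they kept between 35.1% (Espl1) and 47.9% (Cit) of their DMSO mean. The 5 others kept 53.9% (Mad2l1), 67.3% (Cks1b), 75.4% (Ckap5), 78.0% (Bub3) and 103.8% (Numa1). These 5 lay close together in level per length, between 23.2 and 25.2 RPKM in DMSO, among the 8 highest of the 33. Mki67 (24.3 RPKM in DMSO) and Racgap1 (23.6) lay in the same range and fell at least 2-fold. Over the 33 genes the range in DMSO was 11.9-fold, from Trip13 to Top2a. Across genes, which are not independent replicates, the rank correlation of the log2 fold change with DMSO RPKM was 0.28 and with gene length -0.23 (n = 33 genes that share the same 6 libraries).

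**Figure D3:**
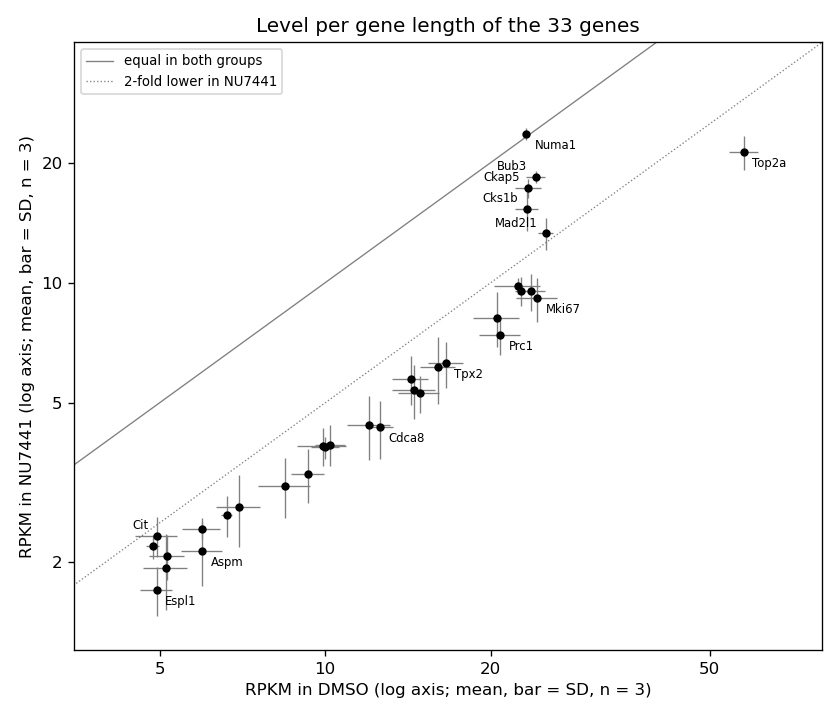
Mean RPKM of each of the 33 genes in NU7441 against DMSO on log axes, with SD as bars (n = 3). The solid line marks equal levels, where Numa1 lies, and the dotted line a 2-fold fall; Bub3, Ckap5, Cks1b and Mad2l1 lie between the lines and the other 28 genes below the dotted one.

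Within each treatment the members moved together from sample to sample. DMSO replicate 1 was the highest DMSO sample for 32 of the 33 genes and NU7441 replicate 1 the highest NU7441 sample for 31, whereas these samples were the highest for 34.9% and 35.1% of all tested genes. The exceptions were Birc5 in DMSO and Trip13 and Cks2 in NU7441. The summed level of the members was 2839, 2603 and 2514 CPM in the DMSO samples and 1399, 1247 and 1214 CPM in the NU7441 samples, so that the groups were separated by more than the spread within either. Leaving out DMSO replicate 1 moved the median log2 fold change of the members to -1.29, and leaving out NU7441 replicate 1 moved it to -1.42. DMSO replicate 3, where 27 members were lowest, had the most counts of all samples, and NU7441 replicate 1 the fewest of its group. DMSO replicate 2 had the fewest counts of all samples and was highest for 1 member. NU7441 replicate 3 was lowest for 25 members, and NU7441 replicate 2, with the most counts of its group, for 7. The part of depth in this order was not tested.

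**Figure D4:**
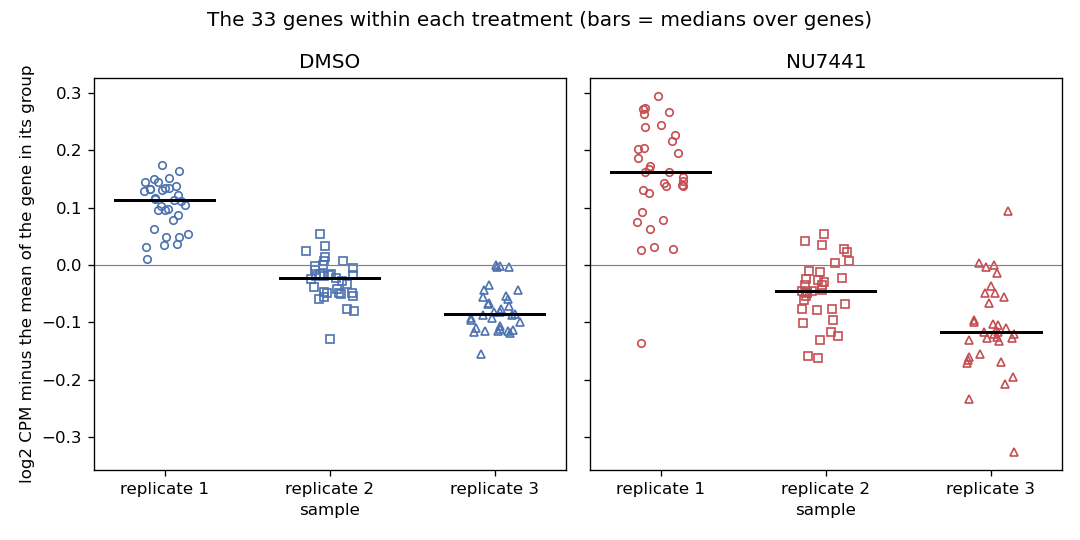
For each sample, the points are the 33 genes as log2 CPM minus the mean of the gene over the 3 samples of that treatment, and the bars are medians. Replicate 1 lies above the other samples in both treatments, with medians of 0.11 in DMSO and 0.16 in NU7441.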

How the data were processed

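RNA-seq of 3 DMSO and 3 NU7441 samples of MC3T3-E1 cells was analysed from 1 deposited table. Per the submitters' processing notes, bcl2fastq, TopHat2 version 2.0.6 and HTSeq were used with the build mm10; the settings, the annotation and the use of strand are not given in the sources used here. Counts were deposited by the authors as whole numbers, and 0 of them are odd, so that each read pair may have been counted as 2. RPKM values were also deposited by the authors, per the file headers, and equal the counts over gene length and over 1 total per sample, of which the gene counts fill 74.2% to 75.7%. They serve here for levels compared between genes. The deposited gene length is a length in bases.

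The count test was edgeR 4.0.16 in R 4.3.3, on counts as deposited: filterByExpr (minimum count 10, minimum total 15), TMM scaling, two-sided quasi-likelihood test with no term but the group, Benjamini-Hochberg adjustment over 13784 genes, threshold 0.05. The SE is the size of the log2 fold change divided by the square root of F. CPM values use scaled library sizes, and the biological coefficient of variation was 5.6%. Pairs of members were compared as log2 ratios of CPM. Alternatives were DESeq2 1.42.0, other scalings, no filter, halved counts, a robust fit, the replicate block, and each sample left out.

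The members, their roles, the lists of other genes and the markers were chosen with earlier results of these data known. Named genes are all members, up to 3 genes of each other list with the lowest adjusted p, those called in the rarer direction, and partners of a member. The pairs were chosen after the values were seen. Promoters are from RefSeq (GRCm38.p6). A search for protein motifs was planned and is not reported here. Apart from microRNA and small nucleolar RNA rows with at most 6 counts, Nusap1 was the only member that overlapped another gene row.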

Additional observations from a re-analysis of the deposited data

How the results depend on the processing

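Over 14 other settings, 461 of 462 recomputed fold changes of single members kept their direction and side of the threshold. The exception was Numa1 with upper-quartile scaling (log2 fold change 0.08, adjusted p = 0.0466), which makes the number of members higher 1. The number of members lower was 32 in every setting, and the number at least 2-fold lower was 27 or 28. The number of other genes higher was 5 with upper-quartile scaling, 1 with library size only, 5 with the replicate block and, with each sample left out in turn, from 1 to 3. The cause was not tested. Upper-quartile scaling moved the median of all genes by 0.03 in log2.

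With the replicate block the median log2 fold change of the members was -1.33 and the number lower 32. Over all tested genes the block gave 2703 lower and 2417 higher, against 2290 and 1941 without it. The numbers were not taken as pairs because the design text names no covariate. Deviations from the group means correlated at 0.134, 0.088 and 0.0471 between samples of the same number. Every sample correlated best with its own number, a hint from the data and not from the design. With 2 samples in an arm, a sample left out changes the spread estimate as well as the mean. The lowest count of a member in a sample was 318, which may stand for fewer read pairs since all counts are even; with halved counts every member kept its direction and side of the threshold.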
